A study of Rattus norvegicus with 48 samples.

Results

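The genes described here are 10 that mark macrophages which have taken up lipid and lie in remodelled matrix, namely Cd36, Trem2, Fabp5, Plin2, Apoe, Cd68, Acp5, Gpnmb, Lgals3 and Spp1. They were chosen by name, and each name had exactly 1 row among the 32285 gene identifiers of the tables. All 10 passed the filter on low counts at every time. Lung tissue came from 48 male Sprague-Dawley rats in 6 groups of 8. By whole-body inhalation the rats had breathed filtered air, or 30 mg/m3 of fracking sand dust (FSD) together with 1.0 mg/m3 of diesel exhaust particles (DEP), for 6 hours on each of 4 days, and lungs were taken at day 1, 7 or 27. No group received the dust or the diesel particles alone, so what each contributes cannot be told apart. The labels give no age at sampling and do not say which rats shared a cage.

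Macrophages of the airspace take up surfactant lipid, dead cells and inhaled particles, and degrade them in lysosomes. Lipid that is not burned is stored in droplets or passed out again on lipoproteins. Macrophages with much stored lipid in injured lung, fat and arteries are known for a shared set of transcripts for lipid handling, lysosomes and secreted matrix proteins, which the 10 genes represent. Several of the 10 are also made by other lung cells: capillary endothelium carries Cd36, lipid-storing fibroblasts carry Plin2, and epithelium carries Lgals3. In RNA from a whole piece of lung, fewer cells of a type and less RNA per cell cannot be told apart. Neither lipid nor cell number was measured in the files used here.

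Promoters are shown first for 3 of the genes whose levels varied together between animals, Gpnmb, Cd68 and Spp1, and for the droplet coat gene Plin2. Each is the 250 bases before a transcription start in RefSeq, on the gene's own strand and 5′ to 3′, with coordinates on GRCr8. That build is not the Rnor_6.0 named for the counts. Capitals mark any of 4 short motifs found on either strand: CACGTG (the E-box bound by the MITF and TFEB family), AGGTCA (bound by nuclear receptors), GAGGAA (the core of a PU.1 site) and TGANTCA (an AP-1 site). The 4 motifs do not share letters with one another in these windows.
Gpnmb (chr4:79340878-79341127, plus strand): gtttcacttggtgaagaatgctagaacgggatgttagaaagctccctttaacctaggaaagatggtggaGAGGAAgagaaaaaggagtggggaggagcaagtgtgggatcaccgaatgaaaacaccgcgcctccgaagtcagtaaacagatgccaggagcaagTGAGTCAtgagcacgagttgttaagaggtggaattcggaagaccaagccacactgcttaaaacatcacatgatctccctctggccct
Cd68 (chr10:54882442-54882691, minus strand): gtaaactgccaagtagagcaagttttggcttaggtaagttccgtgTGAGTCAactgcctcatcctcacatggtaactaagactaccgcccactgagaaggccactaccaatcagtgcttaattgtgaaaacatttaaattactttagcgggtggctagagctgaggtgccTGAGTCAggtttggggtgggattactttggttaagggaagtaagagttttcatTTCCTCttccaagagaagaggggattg
Spp1 (chr14:5619805-5620054, minus strand): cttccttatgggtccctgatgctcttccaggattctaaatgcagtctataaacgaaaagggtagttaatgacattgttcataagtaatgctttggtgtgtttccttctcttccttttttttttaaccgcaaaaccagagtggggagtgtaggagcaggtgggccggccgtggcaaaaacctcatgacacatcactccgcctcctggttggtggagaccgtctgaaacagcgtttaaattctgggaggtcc
Plin2, start 1 (chr5:106229019-106229268, minus strand): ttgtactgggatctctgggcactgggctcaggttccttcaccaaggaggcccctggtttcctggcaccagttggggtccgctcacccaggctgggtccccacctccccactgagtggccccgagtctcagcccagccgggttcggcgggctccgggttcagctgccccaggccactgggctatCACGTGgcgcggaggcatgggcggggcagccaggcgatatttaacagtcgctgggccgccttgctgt

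RefSeq's promoter table held 8 of the 10 genes, with 12 starts between them. Fabp5 and Lgals3 had no entry. An AP-1 motif, TGAGTCA, stood in the windows of Gpnmb (87 to 81 bases before the start) and Cd68 (205 to 199 and 80 to 74 bases before it). Of all 33469 RefSeq rat promoters of this length, 6.34% held that motif. The PU.1 core stood in the windows of Gpnmb, Cd68, Cd36, Trem2 and the second start of Apoe, and in 23.3% of all promoters. The E-box was found before the first start of Plin2, 67 to 62 bases upstream, and in 5.59% of all promoters. The nuclear receptor motif, in 14.1% of all promoters, was found for Trem2 alone among the 12 windows. The window of Spp1 held none of the 4 motifs. These are matches of letters, and none was tested as a binding site.

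Summed counts per library ran from 9445687 to 14400337. Levels are given as CPM, the count of a gene relative to the library's normalized total, on a common scale over all 48 libraries, and are not corrected for gene length, so they compare libraries and not genes. In 4 pairs of libraries the counts differed by only 1.45 to 1.67 times counting noise, against 2.34 for the next closest pair. With the libraries of each group numbered 1 to 8 by animal number, these are libraries 1 and 4 of exposed day 1, 1 and 4 of air day 7, 3 and 6 of exposed day 7, and 3 and 6 of air day 27. Means and SDs average each pair, giving n = 7 in those groups, while the tests use all libraries. Lung markers were high throughout, with the surfactant gene Sftpc at 6467 to 10394 CPM. Of the macrophage markers, Mrc1 stood at 86.7 to 285.1 CPM and C1qa at 33.1 to 74.4 CPM, but the alveolar macrophage receptor Marco at no more than 0.0795 CPM in any library.

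**Figure D1:**
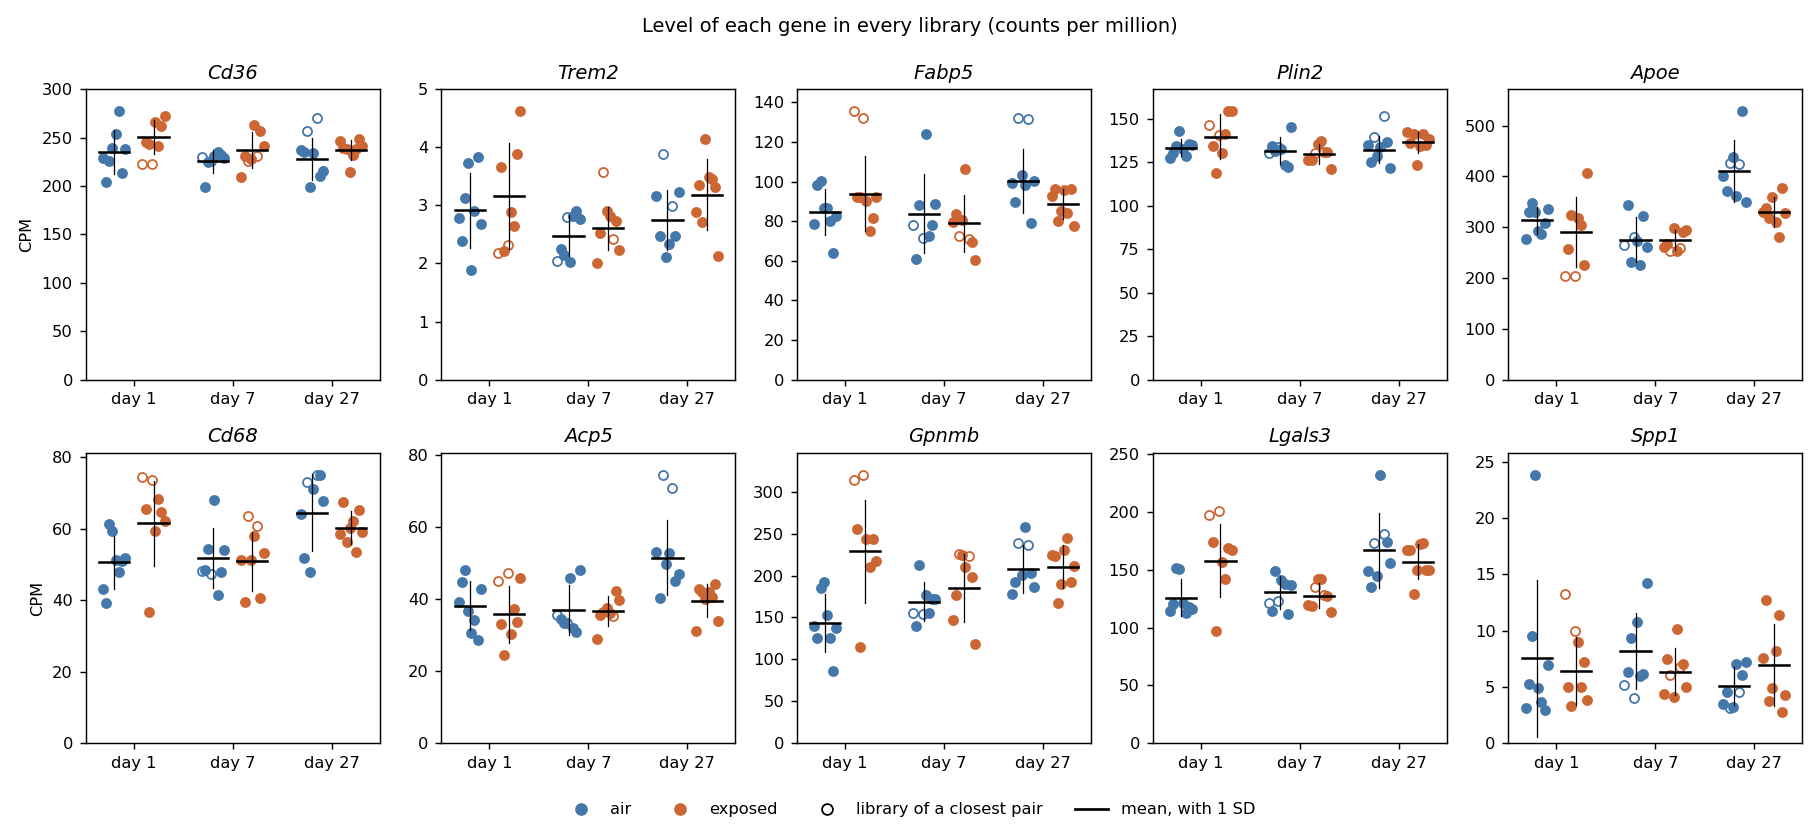
Level of each of the 10 genes in CPM (vertical axis, from 0) in every library of the 6 groups, air in blue and exposed in orange. Open points are libraries of the closest pairs, horizontal lines the group means with each pair averaged, and vertical lines 1 SD. For Gpnmb at day 1, 7 of 8 exposed libraries lie above the air range, and for Apoe at day 27, 6 of 8 lie below it.

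One day after the exposure, Gpnmb, Lgals3 and Cd68 had higher levels in most exposed lungs, but none of the 10 genes passed the test. At each time exposed and air lungs were compared to see which genes the inhaled mixture changed. EdgeR's quasi-likelihood test with Benjamini-Hochberg adjustment over 14314 genes called 4 genes at this time (0.0279% of those tested), all lower. An unadjusted p under 0.05 was reached by 3 of the 10, Gpnmb, Lgals3 and Cd68, and by 8.67% of all genes. The 10 genes had a median log2 fold change of 0.075, with 7 above 0, against 0.0019 over all genes tested.

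Gpnmb (ENSRNOG00000008816) encodes a glycoprotein of lysosomes and the cell surface that macrophages make under lysosomal load. In air lungs at day 1 its level was 85.6 CPM in the lowest library, 139 at the median and 192 in the highest. In exposed lungs it was 115 CPM in the lowest, 243 at the median and 320 in the highest. Of the 8 exposed libraries, 7 lay above the highest air library, and library 3 lay among the air values. The means were 143 ± 34.3 (SD, n = 8) and 229 ± 61.1 CPM (SD, n = 7). From all libraries, edgeR fitted a log2 fold change of 0.75 ± 0.19 (SE) with an adjusted p of 0.318. The highest values, 313 and 320 CPM, belonged to the closest pair, libraries 1 and 4. With that pair summed into 1 library the fold change was 0.68 (adjusted p = 0.545, edgeR).

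Lgals3 (ENSRNOG00000010645) encodes galectin-3, a secreted lectin that binds sugars on cell surfaces and matrix. Its level in air lungs at day 1 was 113 CPM at the lowest, 119 at the median and 152 at the highest. In exposed lungs it was 97.4 CPM at the lowest, 168 at the median and 201 at the highest. Here 6 exposed libraries stood above all air libraries and library 3 stood below them all. The log2 fold change was 0.38 ± 0.12 (adjusted p = 0.403, edgeR), with means of 126 ± 16.0 (SD, n = 8) and 158 ± 31.8 CPM (SD, n = 7). The highest values, 197 and 201 CPM, were again those of libraries 1 and 4. With that pair summed the log2 fold change was 0.33 (adjusted p = 0.595, edgeR).

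Cd68 (ENSRNOG00000037563) is a glycoprotein of the lysosome membrane and a general macrophage marker. Air lungs at day 1 ran from 39.1 CPM over a median of 51.0 to 61.4. Exposed lungs ran from 36.7 CPM over a median of 65.0 to 74.6. Again 6 exposed libraries were above the air range and library 3 was below it. The log2 fold change was 0.32 ± 0.12 (adjusted p = 0.470, edgeR). Libraries 1 and 4, the closest pair, held the highest values here too, 74.6 and 73.5 CPM. With them summed the log2 fold change was 0.29 (adjusted p = 0.683, edgeR).

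Exposed library 3 thus held the lowest value of its group for Gpnmb, Lgals3 and Cd68. It also had the lowest mean level of the alveolar macrophage marker list in its group, at 3.25 log2 CPM against 3.68 to 3.93 in the other exposed libraries and 3.58 to 3.84 in air. The part of those cells in the result was not tested. Without library 3, edgeR called Gpnmb (0.85, adjusted p = 0.0452) and Lgals3 (0.46, adjusted p = 0.0317) among 17 genes (0.118% of those tested). Cd68 stood at 0.40 (adjusted p = 0.0692, edgeR). Library 3 was singled out for its low values of these genes, so leaving it out could only raise their fold changes. Of the 16 fits with 1 library left out, it was the only 1 that called either gene. In the others the edgeR adjusted p reached 0.544 for Gpnmb and 0.618 for Lgals3. With all libraries, Gpnmb also passed by DESeq2 (0.75, adjusted p = 0.0497) among 46 of its genes (0.299%), and in the fit of all 48 libraries (0.74, adjusted p = 0.0190, edgeR) among 14 (0.0943%).

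The lipid genes showed smaller differences at day 1. Cd36 (ENSRNOG00000040108), a scavenger receptor for fatty acids and oxidised lipoproteins, averaged 235 ± 23.1 (SD, n = 8) with air and 250.8 ± 17.2 CPM (SD, n = 7) with exposure. Every one of its deposited values was a fraction, so its level is uncertain. Reads shared with near-identical copies can give such values, but this was not tested. Trem2 (ENSRNOG00000013578), a receptor for lipids on macrophages that signals through Tyrobp, rested on 22 to 57 counts per library and averaged 2.92 ± 0.649 (SD, n = 8) and 3.17 ± 0.912 CPM (SD, n = 7). Fabp5 (ENSRNOG00000049075) carries fatty acids inside the cell and averaged 84.6 ± 11.5 (SD, n = 8) and 93.9 ± 18.9 CPM (SD, n = 7). Its exposed libraries 1 and 4, the closest pair, lay above the rest of the group. Plin2 (ENSRNOG00000007060), which coats lipid droplets, averaged 133 ± 4.91 (SD, n = 8) and 140 ± 12.8 CPM (SD, n = 7). The edgeR adjusted p of these 4 genes lay between 0.632 and 0.948, with log2 fold changes of 0.07 to 0.23.

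Apoe (ENSRNOG00000018454) encodes the lipoprotein that carries cholesterol out of macrophages. At day 1 it ran from 277.1 over a median of 319 to 347 CPM in air lungs and from 204 over 280 to 407 CPM in exposed lungs. The exposed range enclosed the air range, with 4 libraries below it and 1 above. Acp5 (ENSRNOG00000046261), the tartrate-resistant acid phosphatase of lysosomes, averaged 38.2 ± 6.80 (SD, n = 8) and 35.9 ± 7.92 CPM (SD, n = 7). Spp1 (ENSRNOG00000043451), the secreted matrix protein osteopontin, ran from 2.96 over a median of 5.06 to 23.8 CPM in air and from 3.33 over 6.11 to 13.2 CPM in exposed lungs. The edgeR adjusted p of Apoe, Acp5 and Spp1 were 0.757, 0.961 and 0.971. The fold change of Spp1, at -0.09 ± 0.44, became 0.44 without air library 4, which held the 23.8 CPM.

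At day 7 the exposed and air ranges overlapped for all 10 genes and none passed the test. At that time edgeR called 0 of 14259 genes (0%) and 8.47% had an unadjusted p under 0.05. The log2 fold changes of the 10 lay between -0.29 ± 0.25 for Spp1 and 0.19 ± 0.13 for Gpnmb, and all their edgeR adjusted p between 0.700 and 0.995. None of the 10 had an unadjusted p under 0.05, and limma-voom called none of them. DESeq2 called none either, but gave no adjusted p for Trem2 and Spp1. Gpnmb ran from 139 over a median of 163 to 213 CPM in air lungs and from 118 over 204 to 225 CPM in exposed lungs. Of its exposed libraries, 3 lay above the air range and 1 lay below it. Lgals3 ran from 112 to 149 CPM in air and from 114 to 142 CPM in exposed lungs, with 1 air library above the exposed range and 1 below it. Cd36 averaged 226 ± 12.1 (SD, n = 7) and 237 ± 18.5 CPM (SD, n = 7), and Plin2 132 ± 7.73 and 130 ± 5.64 CPM (SD, n = 7 each). Mean Apoe levels were 275.7 ± 43.7 CPM with air and 274.4 ± 19.2 CPM with exposure (SD, n = 7 each).

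**Figure D2:**
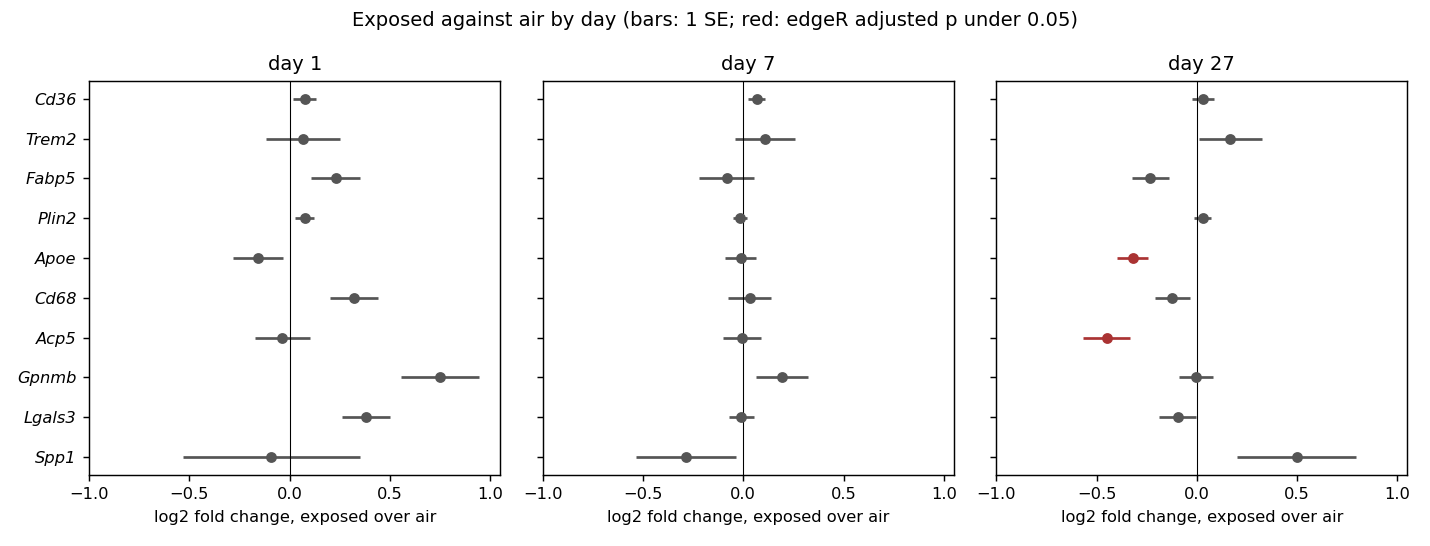
Log2 fold change of each gene, exposed over air (horizontal axis), at day 1, 7 and 27, with bars of 1 SE and red for an edgeR adjusted p under 0.05. Gpnmb at day 1 lies farthest above 0 without passing, and Apoe (-0.32) and Acp5 (-0.45) at day 27 are the points that passed.

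At day 27 Apoe and Acp5 were lower in exposed than in air lungs and the other 8 genes did not pass the test. These 2 lower genes of 10 stood beside 473 lower genes among the 14192 tested (3.33%) and 783 calls in either direction (5.52%). That background moved with single libraries, from 9 genes (0.0631%) without exposed library 3 to 1926 (13.5%) without air library 2. An unadjusted p under 0.05 was reached by Apoe, Acp5 and Fabp5, 3 of the 10, and by 26.7% of all genes. The median of the 10 log2 fold changes was -0.05, with 6 below 0, against -0.0081 over all genes tested.

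Apoe at day 27 ran from 350 over a median of 412 to 529 CPM in air lungs. In exposed lungs it ran from 280 over 329 to 376 CPM. Every exposed library was under the mean of air, and 6 of the 8 were under the lowest air library. At least 7 of 8 exposed libraries on 1 side of the air mean were seen for 42% of all genes at day 27. The means were 411 ± 61.7 (SD, n = 7) and 330 ± 29.6 CPM (SD, n = 8), and the fitted log2 fold change -0.32 ± 0.076 (adjusted p = 0.0322, edgeR). Across the 3 times the exposed means of Apoe were 291.1, 274.4 and 330 CPM and the air means 313, 275.7 and 411 CPM, so air day 27 was the group that stood highest.

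Acp5 at day 27 ran from 40.5 over a median of 51.3 to 74.6 CPM in air lungs and from 31.3 over 41.3 to 44.4 CPM in exposed lungs. All 8 exposed libraries were below the air mean and 3 were below the lowest air library, while 7 air libraries were above the highest exposed one. The log2 fold change from all libraries was -0.45 ± 0.12 (adjusted p = 0.0378, edgeR). With the closest pair averaged, the means were 51.6 ± 10.3 (SD, n = 7) and 39.6 ± 4.58 CPM (SD, n = 8). A fit with the pair averaged gave -0.38 (adjusted p = 0.0710, edgeR). The highest air values, 74.6 and 70.9 CPM, were those of libraries 3 and 6, the closest pair of that group. The exposed means of Acp5 at day 1, 7 and 27 were 35.9, 36.7 and 39.6 CPM, and air day 27 again stood above the 5 other groups.

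With that pair summed into 1 library neither gene passed: Apoe stood at -0.31 on the log2 scale (adjusted p = 0.0621, edgeR) and Acp5 at -0.38 (0.0682), in a fit that called 31 genes in all (0.217%). The mean level of 82 ribosomal protein genes was also higher in air lungs at day 27 (7.13 to 7.63 log2 CPM) than in exposed lungs (7.11 to 7.36). With that level as a covariate Apoe stood at -0.18 (adjusted p = 0.711, edgeR) and Acp5 at -0.24 (adjusted p = 0.783, edgeR), and 0 of the 14192 genes passed. With each library left out in turn, Apoe kept an adjusted p under 0.05 in 9 of 16 fits (-0.35 to -0.26) and Acp5 in 4 of 16 (-0.50 to -0.37). Neither passed without air library 3, 6 or 7 or exposed library 1, 3, 6 or 8. Acp5 alone was lost without air library 5 or 8 or exposed library 4, 5 or 7.

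The other lipid carrier, Fabp5, ran from 79.1 over a median of 99.8 to 132 CPM in air lungs and from 77.5 over 88.9 to 96.5 CPM in exposed lungs at day 27. All 8 exposed values were under the air mean, but the fold change of -0.23 ± 0.092 did not pass (adjusted p = 0.123, edgeR). Its 2 highest air values, 132.2 and 131.5 CPM, were again those of the closest pair. Spp1 ran from 3.15 over 4.57 to 7.23 CPM in air and from 2.79 over 6.21 to 12.7 CPM in exposed lungs, with 4 exposed libraries above the air range and 1 below it. Its log2 fold change was 0.50 ± 0.30 (adjusted p = 0.289, edgeR).

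Gpnmb, which stood apart at day 1, had means of 208 ± 28.9 (SD, n = 7) in air and 210 ± 25.4 CPM (SD, n = 8) in exposed lungs at day 27. The exposed libraries were spread evenly about the air mean, 4 above it and 4 below it. Lgals3 averaged 167 ± 32.5 and 157 ± 15.3 CPM, and Cd68 64.5 ± 10.8 and 60.3 ± 4.58 CPM (SD, n = 7 and n = 8). Trem2 averaged 2.75 ± 0.519 and 3.18 ± 0.607 CPM, Cd36 228 ± 21.5 and 237 ± 10.7 CPM, and Plin2 132 ± 7.86 and 136 ± 6.08 CPM, with the same n. The edgeR adjusted p of these 6 genes lay between 0.372 and 0.970. At no time was there a gene among the 10 whose exposed and air libraries did not overlap, as was so for 0.0768%, 0.0421% and 0.444% of all genes tested at day 1, 7 and 27.

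Whether the exposure effect itself changed with time was tested in 1 fit of all 48 libraries. None of the 30 contrasts, 10 genes by 3 pairs of days, passed by edgeR, where 0%, 0.498% and 0.0202% of 14852 genes passed for day 7 against 1, 27 against 1 and 27 against 7. Gpnmb came nearest, its effect at day 27 lying 0.75 ± 0.21 log2 units below that at day 1 (difference -0.75, adjusted p = 0.0724, edgeR), followed by Lgals3 (-0.47 ± 0.14, adjusted p = 0.0987, edgeR). DESeq2 called both, with adjusted p of 0.0158 for Gpnmb and 0.0350 for Lgals3, among 3.46% of its genes. An unadjusted edgeR p under 0.05 was reached by Gpnmb and Lgals3 for day 7 against 1, by those and Cd68, Fabp5 and Acp5 for day 27 against 1, and by Acp5 and Apoe for day 27 against 7, where 7.5%, 14.6% and 14.9% of all genes reached it.

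The air lungs, which breathed no dust or diesel, showed more calls among the 10 genes between days than the exposure gave. These contrasts are from the fit of all 48 libraries. In that fit the exposure called Gpnmb at day 1 (0.0943% of all genes) and Apoe and Acp5 at day 27 (15% of all genes). Compared with air day 1, air day 27 had higher Gpnmb, Acp5, Lgals3, Apoe and Cd68, 5 of the 10 genes, where 9.15% of all genes tested were higher and 17.6% were called. Compared with air day 7, it had higher Apoe, Acp5, Lgals3, Cd68 and Fabp5, again 5 of 10, where 20% of all genes were higher and 39.7% were called. Between air day 7 and day 1 none of the 10 passed or had an unadjusted p under 0.05 (8.32% and 26% of all genes did). In these 3 contrasts none of the 10 was called lower.

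Gpnmb in air lungs had means of 143, 169 and 208 CPM at day 1, 7 and 27, and its day 27 level was 0.56 ± 0.15 log2 units above day 1 (adjusted p = 0.00567, edgeR). Neighbouring days did not differ by the test, since day 7 against day 1 did not pass and day 27 against day 7 was 0.34 ± 0.15 (adjusted p = 0.0591, edgeR). Lgals3 had air means of 126, 131 and 167 CPM and was higher at day 27 by 0.42 ± 0.10 over day 1 and 0.38 ± 0.10 over day 7 (edgeR adjusted p = 0.00240 and 0.00254). Acp5, with air means of 38.2, 37.1 and 51.6 CPM, was higher by 0.51 ± 0.12 and 0.56 ± 0.12 (edgeR adjusted p = 0.00300 and 0.000404). For none of these genes did day 7 differ from day 1 by the test. Cd68 had air means of 50.6, 51.7 and 64.5 CPM (0.38 ± 0.11 over day 1, adjusted p = 0.0143, edgeR). Apoe was higher at day 27 by 0.58 ± 0.10 over day 7 (adjusted p = 1.88e-05, edgeR) and 0.40 ± 0.10 over day 1 (adjusted p = 0.00413, edgeR).

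**Figure D3:**
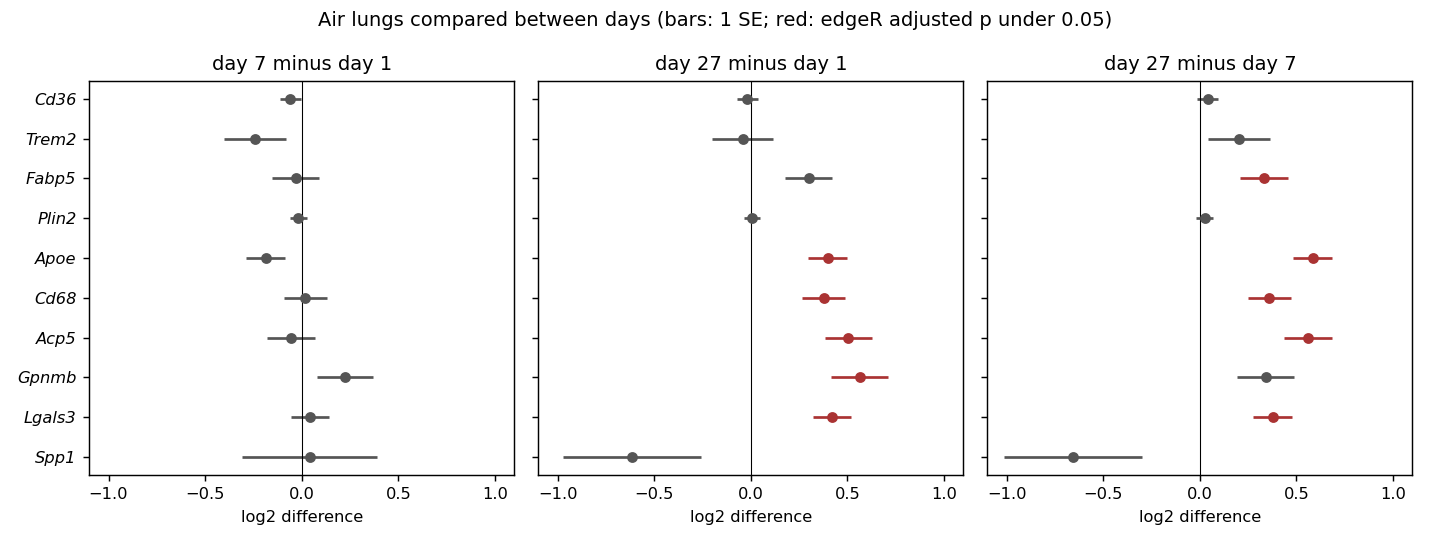
Log2 difference between days in air lungs for each gene (horizontal axis), with bars of 1 SE and red for an edgeR adjusted p under 0.05. Red points put day 27 above day 1 or day 7 in 6 genes, while Cd36 and Plin2 lie near 0. Spp1 lies below 0 at day 27 and Trem2 above 0 for day 27 against day 7 (0.20), both without passing.

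The lipid genes Cd36 and Plin2 differed little between days, with differences between air groups of no more than 0.06 log2 units and air means of 226 to 235 CPM and 132 to 133 CPM. Spp1 had the lowest air mean at day 27, 5.07 CPM against 7.53 and 8.20 CPM, without passing (edgeR adjusted p = 0.242 and 0.142). With each of the 24 air libraries left out in turn, the 5 genes higher than at day 1 passed in all 24 fits. Against day 7, Apoe, Acp5, Lgals3 and Cd68 passed in all 24 and Fabp5 in 18. Age, and any handling or sequencing done separately by day, cannot be told apart from the day. The ribosomal protein level moved with the same contrast, at a mean of 7.39 log2 CPM in air lungs of day 27 against 7.15 and 7.00 at day 1 and 7. With it as a covariate, 1 of these 10 calls was left, Gpnmb at day 27 against day 1 (0.59 ± 0.18, edgeR adjusted p = 0.0396, with 6.35% of genes called). Lgals3 stood at 0.36 in that contrast (adjusted p = 0.0734, edgeR) and Acp5 at 0.28 (adjusted p = 0.254, edgeR). For day 27 against day 7 that fit called 0.579% of all genes, with Apoe at 0.24 (adjusted p = 0.605, edgeR). The summed alveolar macrophage markers stood at 538 to 697, 619 to 820 and 713 to 942 CPM in air lungs at day 1, 7 and 27. Of these, Chi3l1, named after its values were seen, stood at 96.9 to 196 CPM at day 1 and 238 to 334 CPM at day 27, and the other 13 summed to 441 to 516 and 465 to 616 CPM. Their part in the difference was not tested.

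Within groups, levels of several of the 10 genes varied together from animal to animal. Each gene's log2 CPM was taken relative to its group mean over the 48 libraries, and all 45 pairs were compared, with p from 100000 permutations within groups. Of the 45 pairs, 17 passed Benjamini-Hochberg adjustment by Pearson's r and all 17 were positive, and 16 passed by Spearman's rho. The weakest of the 17 had r = 0.38, a value reached by 37.8% of the 45 pairs and by 6.15% of all pairs of 12902 genes. The 17 pairs lay among 7 genes, Gpnmb, Lgals3, Spp1, Cd68, Fabp5, Acp5 and Plin2. Of the pairs among those 7, Fabp5 with Cd68, Fabp5 with Plin2, and Spp1 with Plin2 or Acp5 did not pass. Gpnmb and Lgals3 were the closest (r = 0.82, rho = 0.84, both adjusted p = 0.00015 by permutation, the smallest the permutations can give for them). Without the 2 libraries farthest from the median of Gpnmb their r was 0.80, and it was 0.69 among the air and 0.92 among the exposed libraries. Cd68 and Lgals3 followed at r = 0.68 (rho = 0.62, adjusted permutation p = 0.00015 for both), or 0.54 without the 2 farthest libraries.

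Spp1, a gene of low count, varied with Lgals3 (r = 0.61, rho = 0.62) and Gpnmb (r = 0.61, rho = 0.60), and these values were 0.61 and 0.57 without the 2 farthest libraries. The adjusted permutation p of the 2 pairs were 0.00015 and 0.000225 by r. Fabp5 varied most with Acp5 (r = 0.56, rho = 0.51, adjusted permutation p = 0.00099 and 0.00375). That r was 0.77 among air and 0.30 among exposed libraries, a difference that was not tested. Plin2 was in 4 of the 17 pairs, with Lgals3 (0.54), Acp5 (0.51), Cd68 (0.51) and Gpnmb (0.47). Its r fell to between 0.32 and 0.40 without the 2 farthest libraries.

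Cd36, Trem2 and Apoe were in none of the 17 pairs. For Trem2 the 22 to 57 counts per library limit what can be seen. Apoe had r of -0.36 with Lgals3 and -0.34 with Gpnmb (adjusted permutation p = 0.141 and 0.117). Among exposed libraries these were -0.51 and -0.53 and among air libraries -0.13 and -0.02, and the difference was not tested. Not all of the 10 genes chosen for one kind of macrophage were thus in a pair that passed. A pair that did not pass is not shown to vary apart, and whether the 10 form a single block was not tested. With the 4 closest pairs averaged, leaving 44 libraries, 17 pairs passed as before.

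**Figure D4:**
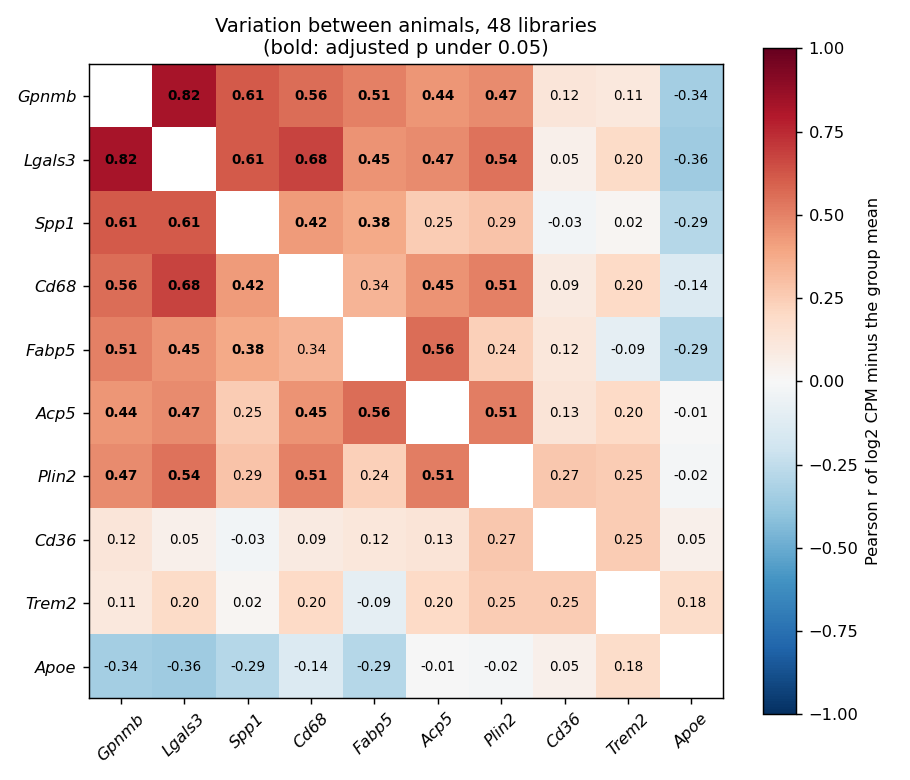
Pearson's r between each 2 of the 10 genes over 48 libraries, from log2 CPM minus the group mean, on a scale from -1 (blue) to 1 (red), with bold for a permutation p under 0.05 after adjustment over 45 pairs. Gpnmb and Lgals3 (0.82) have the highest value, the 17 bold pairs lie among 7 genes, and Cd36, Trem2 and Apoe have no bold value.

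The genes were then set beside the mean level of 8 marker lists and of ribosomal protein genes, 90 relations in all, with the same permutation test. Gpnmb (r = 0.72, rho = 0.59, adjusted p = 0.0018 and 0.00405) and Lgals3 (r = 0.67, rho = 0.51, adjusted p = 0.0036 and 0.0106) varied with the alveolar macrophage list. Without the 2 farthest libraries the values were 0.55 and 0.50. None of the 10 genes is in that list. Fabp5 passed with it too (r = 0.48, rho = 0.47, adjusted permutation p = 0.0149 and 0.0217). Plin2 (r = 0.55), Acp5 (r = 0.49) and Spp1 (r = 0.39) passed with it by r alone (adjusted permutation p = 0.0099, 0.0149 and 0.0323). Cd68 varied with the monocyte and interstitial macrophage list (r = 0.52, rho = 0.51, adjusted permutation p = 0.0072 and 0.0106) and with the alveolar macrophage list (r = 0.54, adjusted permutation p = 0.0189, but rho = 0.39 with 0.0581).

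Alveolar type 2 cells make surfactant, and their marker list varied with Acp5 (r = 0.49, rho = 0.51, adjusted permutation p = 0.0036 and 0.0054), Spp1 (r = 0.49, rho = 0.54, adjusted permutation p = 0.0114 and 0.00405) and Gpnmb (r = 0.49, rho = 0.42, adjusted permutation p = 0.0072 and 0.0382). Lgals3 passed with that list as well (r = 0.38, rho = 0.46, adjusted permutation p = 0.0149 and 0.0186). Fabp5 had r of 0.53 with that list (adjusted permutation p = 0.00562) and rho of 0.38 (0.0655). Trem2 varied with the red blood cell list (r = 0.44, rho = 0.43, adjusted permutation p = 0.0189 and 0.0382). By r alone, Trem2 (r = 0.41, adjusted permutation p = 0.0323) and Plin2 (r = 0.39, adjusted permutation p = 0.0488) passed with the monocyte and interstitial macrophage list. Cd68 also varied with the neutrophil list (r = 0.38, rho = 0.44, adjusted permutation p = 0.0391 and 0.0312). With the ribosomal protein level Cd68 passed by rho alone (rho = 0.41, adjusted permutation p = 0.0406). Apoe passed with none of the 8 cell lists and varied with the ribosomal protein level (r = 0.46, rho = 0.45, adjusted permutation p = 0.0215 and 0.0382). Cd36 passed with none of the 9 by r, but with the alveolar macrophage list by rho (r = 0.36, rho = 0.41, adjusted permutation p = 0.0803 and 0.0408). The cell source of the shared variation was not tested.

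**Figure D5:**
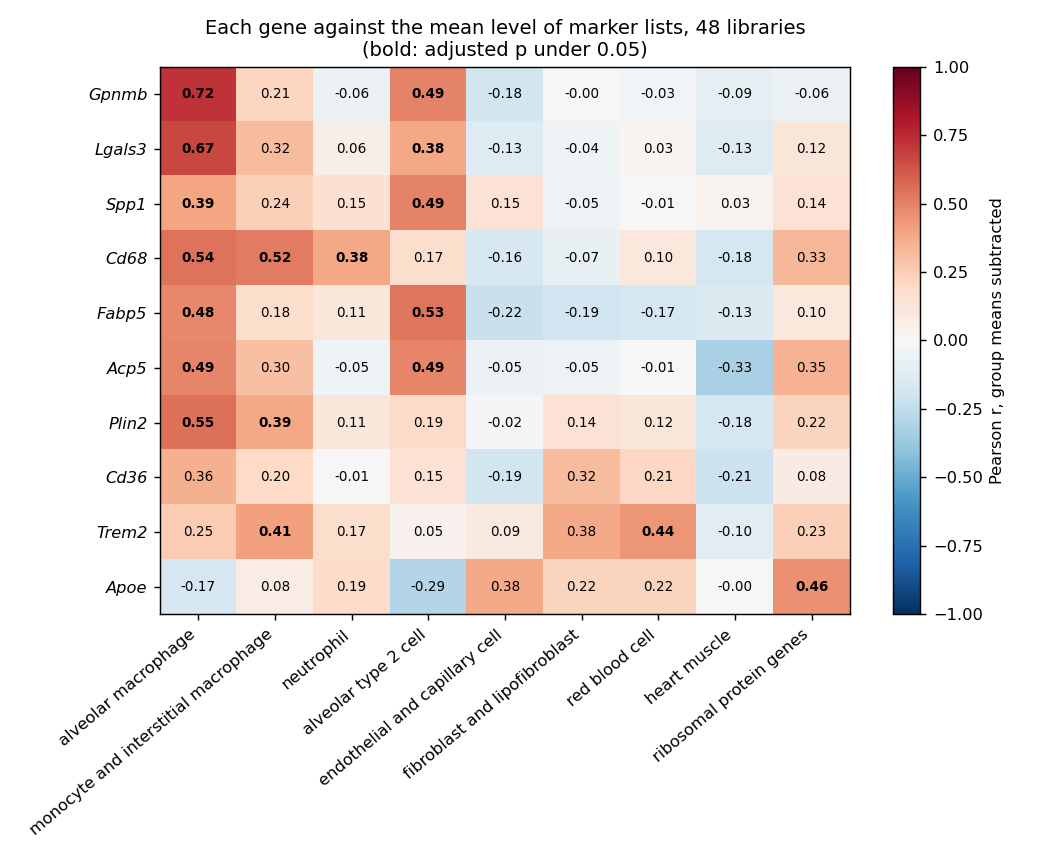
Pearson's r of each of the 10 genes (rows) with the mean level of 8 marker lists and of the ribosomal protein genes (columns) over 48 libraries, group means subtracted, with bold for a permutation p under 0.05 after adjustment over 90 relations. Gpnmb (0.72) and Lgals3 (0.67) are highest with alveolar macrophage markers, and Apoe has its only bold value with ribosomal protein genes (0.46).

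Among 12901 genes, those whose variation was most like each of the 10 were named by r over the 48 libraries, as a description. Gpnmb was most like Cxcr1 (0.85) and Xrcc5 (0.81) beside Lgals3, and Lgals3 was most like Gpnmb and Capg (0.78), an actin-capping protein of macrophages. Cd68 was most like the cathepsins Ctsz (0.79) and Ctss (0.78), which are lysosomal proteases. Apoe was most like Cyp2e1 (0.75), a cytochrome P450, and Figf (0.62). Spp1 was most like Npc2 (0.68), which moves cholesterol out of lysosomes, and Anxa2 (0.68). Plin2 was most like the lysosomal phospholipase Pla2g15 (0.66) and Prdx5 (0.65), and among the genes near Fabp5 was Ttc7a (0.63). Acp5 was most like Siglec10 (0.66) and the ferritin chain Ftl1 (0.64). Cd36 (Abcd3 0.66, Slit2 0.65) and Trem2 (Txnl4b 0.67, Ppp5c 0.59) had other neighbours again.

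Of the wider pathways, no gene of the 4 pathway lists or of the marker lists passed the test at day 1 or day 7. At day 1 the smallest p in the list for lipid uptake, storage and export was that of Soat1, which esterifies cholesterol (0.22 ± 0.062, adjusted p = 0.345, edgeR). In the Trem2 and lipid-associated macrophage list it was that of Ctsd, a lysosomal protease, at 605 CPM in air and 758 in exposed lungs (0.36 ± 0.096, adjusted p = 0.312, edgeR). In the osteoclast-type list it was Mitf, a transcription factor known to act on Gpnmb and Acp5 (0.30 ± 0.073, adjusted p = 0.239, edgeR). These stood in lists whose medians were 0.05, 0.10 and -0.01, against 0.0019 over all genes.

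At day 27, beside 5.52% called and 3.33% lower over all genes, 2 of 17 tested genes of lipid uptake, storage and export were called, both lower: Cidec, a protein of large lipid droplets (3.95 CPM in air, 2.57 in exposed lungs, -0.68 ± 0.19, adjusted p = 0.0456, edgeR), and Pparg, the nuclear receptor for fatty acids on which alveolar macrophages depend (19.3 and 15.8 CPM, -0.33 ± 0.093, adjusted p = 0.0441, edgeR). Both are also in the alveolar macrophage list, where they were the 2 of 12 tested that passed. In the Trem2 list 1 of 17 passed, the lysozyme Lyz2 (-0.24 ± 0.065, adjusted p = 0.0432, edgeR). Of 14 monocyte and interstitial macrophage markers 1 passed, the haemoglobin scavenger receptor Cd163, which was higher (0.49 ± 0.14, adjusted p = 0.0462, edgeR). None of 16 genes of osteopontin receptors and matrix macrophages and none of 6 osteoclast-type genes passed, nor did any neutrophil, alveolar type 2, red blood cell or heart muscle marker. Of 11 endothelial and capillary markers 2 were lower, Tie1 (-0.17 ± 0.040, adjusted p = 0.0292, edgeR) and Plvap (-0.20 ± 0.048, adjusted p = 0.0327, edgeR), and of 11 fibroblast markers 2 were higher, Npnt (0.27 ± 0.072, adjusted p = 0.0396, edgeR) and Pdgfra (0.23 ± 0.064, adjusted p = 0.0444, edgeR). With the ribosomal covariate no gene of any list passed. The summed alveolar macrophage markers ran from 713 to 942 CPM in air and from 583 to 807 CPM in exposed lungs at day 27. Without Chi3l1, at 238 to 334 CPM in air and 95.4 to 334 CPM in exposed lungs, the other 13 summed to 465 to 616 and 473 to 522 CPM. The part of these cell markers in the differences of Apoe and Acp5 was not tested.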

How the data were processed

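The deposited values are the authors' expected counts per gene, estimates that need not be whole, in 1 table per day, not normalized. Per the submitters' processing notes the tools included Salmon 1.10.1, STAR 2.6.1d, Trim Galore 0.6.7, cutadapt 3.4 and bcl2fastq 2.19, with the build Rnor_6.0. Their settings are not given in the sources used here. Per the labels' protocols, libraries came from polyadenylated RNA of a piece of lung. The labels gave each library's group, day and animal number.

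Counts were rounded (5.58% of values were not whole at a tolerance of 1e-06). Each day was tested with edgeR 4.0.16 in R 4.3.3: TMM factors, filterByExpr, a quasi-likelihood F test with the robust option, and p adjusted by Benjamini-Hochberg over all genes tested, threshold 0.05. SE is the size of the log2 fold change over the square root of F. Contrasts between days came from 1 fit of all 48 libraries, which also gave the CPM. Correlations used log2 CPM with a prior count of 2. Alternatives used limma 3.58.1, DESeq2 1.42.0 and sva 3.50.0. The test steps were tested on simulated data.

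The 10 genes, lists and motifs were chosen with earlier results of these data known, so no count over them is independent support. The genes named beside the 10 are the 2 with the highest r to each, and per list the called genes or the one with the smallest p. Of these, 1 gene is not reported here. Precision is lowest for Trem2 and Spp1, whose counts were small in libraries of 9445687 to 14400337 counts. P-values measure only the spread among libraries within groups.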

Additional observations from a re-analysis of the deposited data

Results flagged for a closer look

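In 60 checks, 10 genes by 6 groups of 8 libraries, 6 groups had 1 library far from the rest of its group. Chance alone gives such a gap in about 5% of groups. Among exposed lungs, Cd68 at day 1 stood at 36.7 CPM in library 3, against 59.4 in the next lowest library, and Plin2 at day 27 stood at 123 CPM in library 4, against 134. Among air lungs, Spp1 at day 1 stood at 23.8 CPM in library 4, against 9.56 in the next highest, and Lgals3 at day 27 at 232 CPM in library 5, against 181. At day 7 in air lungs, Cd36 stood at 199 CPM in library 2, against 225 in the next lowest, and Fabp5 at 124 CPM in library 5, against 88.5 in the next highest. Of these 6 libraries, library 3 of exposed day 1 was also lowest for Gpnmb and Lgals3.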

How the results depend on the processing

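Of the 10 genes at day 1, 1 passed by DESeq2 and 1 in the fit of all 48 libraries (Gpnmb in both), and 0 to 2 did with each library left out in turn, the 2 without exposed library 3. At day 27, 1 passed with no filter on low counts (Apoe, with 2.35% of all genes), and 0 with a surrogate variable (0.5% of all genes), the ribosomal protein level as a covariate (0%), or the closest pairs summed (0.217%) or averaged (0.0351%). With each library left out, 0 to 2 passed. RLE size factors, a minimum mean of 1 CPM, DESeq2, limma-voom, the fit of all libraries and the log2 total count gave 2 at day 27, with 5.57% to 15% of all genes. DESeq2 gave 2 genes whose exposure effect differed between days. For air lungs between days the ribosomal covariate, chosen after seeing the data, left 1 of 10 calls, and the other settings gave 9 to 11. The 17 pairs of genes that varied together numbered 16 to 17.

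No reversal touched a difference that had passed. At day 1 the log2 fold change of Spp1 was 0.10 by limma-voom, 0.49 with a surrogate variable and 0.16 with the ribosomal covariate, and that of Acp5 was 0.030 and 0.018 under the last 2. Trem2 was -0.063 with log2 total count as a covariate. At day 7 Acp5 was 0.0057 by limma-voom and 0.012 with a surrogate variable, and Cd68 was -0.019 with the closest pairs summed and -0.023 with them averaged. At day 27, Cd68, Gpnmb and Lgals3 were 0.018, 0.055 and 0.019 with a surrogate variable and 0.12, 0.084 and 0.041 with the ribosomal covariate, and Gpnmb was 0.018 with the closest pairs summed and 0.022 with them averaged. With each library left out, the ranges that crossed 0 at day 1 were -0.095 to 0.031 for Acp5, -0.28 to 0.44 for Spp1 and -0.042 to 0.13 for Trem2. At day 7 they were -0.052 to 0.039 for Apoe, -0.039 to 0.022 for Lgals3, -0.16 to 0.025 for Fabp5, -0.039 to 0.060 for Acp5, -0.016 to 0.10 for Cd68 and -0.032 to 0.0067 for Plin2. At day 27 the range was -0.040 to 0.039 for Gpnmb. The cause was not tested. No paired analysis was possible because the groups share no animal numbers.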
